A study of Mus musculus with 6 samples.

Results

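The baseline transcriptome described here is that of wild-type epithelium of the mouse gonadal primordium at E10.5, counted in days of embryonic development, read from 3 of the 6 arrays of a study that also profiled fetuses lacking Emx2. Its members are the 3 arrays labelled +/+ #1 to #3, called wild-type pools 1, 2 and 3. They were chosen by that label alone. The Emx2 KO arrays entered only the choice of a common scale, and no wild-type value is compared with them. Each pool held material from 3 wild-type fetuses. Per the labels' protocols, fetuses were frozen unfixed, cut into 30 µm sections and stained with hematoxylin, and the epithelium was collected by laser microdissection. GATA4 immunostaining of some sections located the primordium, so the presence of Gata4 RNA is not a finding. From each pool, 15 ng of total RNA passed through 2 rounds of amplification before biotin labelling. The labels give neither the sex of the fetuses nor whether pools shared a litter, so SDs over the 3 pools measure only the spread between these samples.

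The gonadal primordium forms on the ventromedial side of the mesonephros, where the coelomic epithelium thickens. Cells of this layer turn on transcription factors such as Wt1, Lhx9, Emx2, Gata4 and Nr5a1, divide, and in part leave the epithelium for the underlying mesenchyme, where they join the supporting and other somatic lineages of the testis or ovary. At E10.5 the gonad is still bipotential and primordial germ cells are arriving. The same epithelium is continuous with the mesothelium that lines the body cavity, and it shares keratins and surface proteins with it.

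Values are intensities, 1 linear number per probe set and array, scaled so that each array had the same 2% trimmed mean of 309.2. As deposited, the trimmed means were 254, 284 and 373 in pools 1, 2 and 3, and the scale factors were 1.22, 1.09 and 0.829. Intensities of different probe sets differ with the affinity of their probes. An order of brightness, as in the rankings and the bins of level below, is therefore not an order of transcript abundance. Elsewhere levels are read within a probe set, across pools, or against a background limit. That limit was set in each array at the 95th percentile of 84 probe sets named for olfactory and vomeronasal receptors, and came to 20.03, 25.27 and 27.29. A gene is represented by its brightest probe set.

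Of 18193 named genes, 11902 (65.4%) lay above the limit in all 3 pools, 4599 in none and 1692 in some. The median gene had a mean scaled intensity of 113, the 75th percentile was 588, the 95th was 3229 and the 99th was 8527. The brightest 25 genes held 3.26%, 3.24% and 2.87% of the summed intensity of named genes in pools 1, 2 and 3, and the brightest 1000 held 49.4%, 48.9% and 47.7%. Log2 intensities of the pools correlated across probe sets with r of 0.980 to 0.982 and rho of 0.964 to 0.965. Probe sets share arrays and probe affinities, so these coefficients describe the arrays and carry no test. For the control genes Actb and Gapdh, the 3' probe set exceeded the 5' probe set by 19.4, 16.6 and 14.9 times and by 4.25, 3.80 and 3.48 times in pools 1, 2 and 3. Pool 1 was thus highest and pool 3 lowest in both ratios, and probe sets far from the 3' end of a transcript can read low in all of them.

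Genes on the list of ribosomal proteins made up 11 of the brightest 25 genes and 24 of the brightest 100. That list leaves out the ribosomal protein gene Rpsa (15039 ± 1950), which was also among the brightest 25. Rps18, a protein of the small ribosomal subunit, had scaled intensities of 19894, 19545 and 16822 (mean 18754 ± 1682, SD, n = 3). Rpl13a followed at 18327 ± 1915 and Uqcrb, a subunit of respiratory complex III, at 18226 ± 1635. Others of the brightest 25 included the chaperone Hspa8 (15496 ± 2436), the histone variant H2az1 (14612 ± 952), the chromatin protein Hmgn1 (14460 ± 324) and cytoplasmic actin Actg1 (14378 ± 1263). The embryonic globin Hbb-y, at 14960, 14957 and 12794, also stood among them. All 25 were lowest in pool 3 after scaling, although 24 of the 25 were highest in pool 3 as deposited. The highest deposited values, 17290.5, 18905.7 and 20356.6, differed less between pools than the trimmed means did, so that scaling lowered the top of pool 3. Of the 25, 15 are read by probe sets whose suffix, _x_at or _s_at, marks probes shared with other transcripts. Only 10 of the 25 remained among the brightest 25 without such probe sets.

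The 7 housekeeping lists had between 77.1% and 100% of their genes above the limit in all pools. Of the ribosomal proteins 46 of 48 were above it in all pools (95.8%), with a median of means of 10415. The corresponding counts were 98 of 102 for mitochondrial respiration, 44 of 45 for translation factors, 16 of 16 for glycolysis, 44 of 49 for actin and tubulin cytoskeleton, 86 of 97 for chaperones and proteasome and 27 of 35 for histones and chromatin proteins, against 65.4% of all named genes. Of the brightest 100 genes, 8 belonged to mitochondrial respiration, 6 to translation factors and 0 to glycolysis. Eef1a1, the elongation factor that brings aminoacyl-tRNA to the ribosome, read 14260, 14536 and 12331. Pgk1, a glycolytic kinase, read 9925, 9628 and 9193. The chemosensory receptors used to set the limit had 2 of 76 genes above it in all pools, a share fixed by their use.

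Promoters of 10 genes show the range of sequence found upstream of genes with a high signal in this epithelium. They were chosen after their values were seen: Lhx9 and Emx2 as gonadal regulators, Bnc1, Krt8, Krt18 and Upk3b as epithelial genes, Rps18 and Rpl38 as genes of the ribosome, and Hbb-y and Hba-x as globins of embryonic red cells. Each sequence is the 120 bases before the transcription start given by RefSeq on GRCm38.p6, 5′ to 3′ on the gene's strand. Capitals mark CG dinucleotides and the hexamer TATAAA. The windows lie at Lhx9 at chr1:138842445-138842564 on the minus strand, Emx2 at chr19:59458570-59458689 on the plus strand, Bnc1 at chr7:81992300-81992419 on the minus strand, Krt8 at chr15:102004343-102004462 on the minus strand, and Krt18 at chr15:102028096-102028215 on the plus strand. The others lie at Upk3b at chr5:136038376-136038495 on the plus strand, Rps18 at chr17:33955666-33955785 on the minus strand, Rpl38 at chr11:114668460-114668579 on the plus strand, Hbb-y at chr7:103853208-103853327 on the minus strand, and Hba-x at chr11:32276480-32276599 on the plus strand.
Lhx9: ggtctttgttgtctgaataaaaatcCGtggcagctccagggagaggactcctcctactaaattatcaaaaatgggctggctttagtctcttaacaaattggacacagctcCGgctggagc
Emx2: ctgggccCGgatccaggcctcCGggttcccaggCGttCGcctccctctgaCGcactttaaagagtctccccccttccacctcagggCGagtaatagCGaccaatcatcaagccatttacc
Bnc1: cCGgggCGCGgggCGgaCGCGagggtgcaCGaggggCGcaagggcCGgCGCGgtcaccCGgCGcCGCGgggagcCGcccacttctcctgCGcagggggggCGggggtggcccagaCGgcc
Krt8: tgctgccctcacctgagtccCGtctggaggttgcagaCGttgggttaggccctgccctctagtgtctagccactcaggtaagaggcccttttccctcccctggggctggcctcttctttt
Krt18: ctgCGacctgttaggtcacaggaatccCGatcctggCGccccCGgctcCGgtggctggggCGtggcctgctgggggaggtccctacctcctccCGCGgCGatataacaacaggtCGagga
Upk3b: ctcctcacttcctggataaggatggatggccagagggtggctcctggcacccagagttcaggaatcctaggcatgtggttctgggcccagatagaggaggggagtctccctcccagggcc
Rps18: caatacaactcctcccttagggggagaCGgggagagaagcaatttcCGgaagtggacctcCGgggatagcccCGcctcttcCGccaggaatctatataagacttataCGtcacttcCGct
Rpl38: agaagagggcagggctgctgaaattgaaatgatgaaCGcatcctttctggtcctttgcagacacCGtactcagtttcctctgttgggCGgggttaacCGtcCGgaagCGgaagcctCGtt
Hbb-y: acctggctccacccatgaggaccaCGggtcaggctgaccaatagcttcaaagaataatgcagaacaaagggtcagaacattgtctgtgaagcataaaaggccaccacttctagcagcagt
Hba-x: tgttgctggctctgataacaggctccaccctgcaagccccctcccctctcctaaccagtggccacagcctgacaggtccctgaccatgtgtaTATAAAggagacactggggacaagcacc
The Bnc1 window held 19 CG pairs and the Upk3b and Hba-x windows held 0. Over the 300 bases from 250 before to 50 after the start, the observed over expected ratio of CG pairs was 0.98 for Bnc1, 0.84 for Emx2 and 1.02 for Rps18, but 0.26 for Lhx9, 0.24 for Krt8, 0.08 for Upk3b, 0.07 for Hbb-y and 0.09 for Hba-x. Krt8 and Krt18 encode partner keratins and differed in this ratio, 0.24 against 0.60. The hexamer occurred only in the Hba-x window among the 10, starting 28 bases before the start. Lhx9 and Upk3b were thus bright genes with few CG pairs in this window.

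Across genes, level and CG content of the promoter moved together. Of the named genes, 14367 matched a promoter by gene identifier, and the 11720 with 1 promoter were put into 10 bins of equal size by level. The share with an observed over expected ratio of at least 0.6 was 13.5% in the dimmest bin, 40.8% in bin 4, 60.1% in bin 5 and 87.1% in the brightest bin. TATAAA on either strand of the 300 bases was found in 236 of 1172 promoters in the dimmest bin (20.1%) and 82 of 1172 in the brightest, against 13.6% of all 32851 promoters in the table. AGATAA, a form of the motif that GATA factors bind, was searched on both strands as well. It was found in 7.97% of the 11720 binned promoters and in 11.2% of all promoters. Some lists lay apart from the share of 75.8% over all genes above the limit in all pools. Of the 10 erythroid promoters 0% reached the CG ratio of 0.6, while 4 of 10 held TATAAA and 4 of 10 held AGATAA. Of the 14 promoters of mesothelium and coelomic epithelium genes, 42.9% reached the ratio, and of the 16 of gonadal regulators 62.5% did. The 62 promoters of chemosensory receptors, genes near the background, had 0% at the ratio, 18 with TATAAA and 13 with AGATAA. Of promoters of ribosomal proteins, 85.7% reached the ratio. Among transcription factors, 75.7% of those above the background limit in all pools and 54.1% of those above it in no pool did so. These are matches of letters in a fixed window and show neither binding nor a cause of the level.

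**Figure D1:**
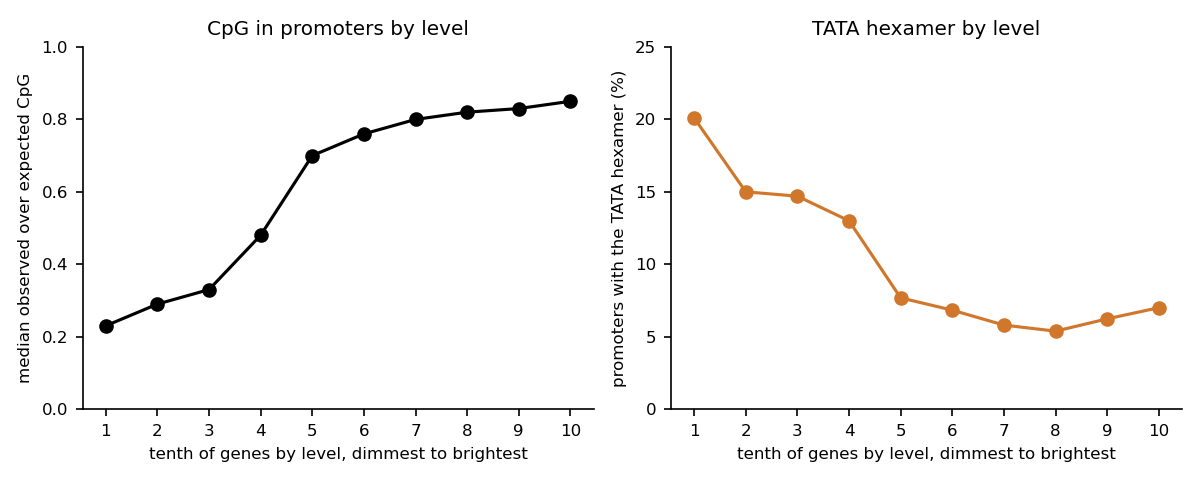
CG content (left, median observed over expected CG ratio) and the share of promoters with TATAAA on either strand (right, %) for 11720 genes in 10 bins of level, dimmest to brightest, 1172 genes a bin. The CG ratio rises from 0.23 to 0.85. Promoters with TATAAA number 236 of 1172 in the dimmest bin, 63 in bin 8 and 82 in the brightest.

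Of transcription factors, 781 of 1080 (72.3%) were above the limit in all pools, against 65.4% of all named genes. Without the large family of zinc finger (ZFP) genes, 491 of 754 (65.1%) were above the limit in all pools, and of the ZFP genes 290 of 326 (89.0%) were. The brightest were Tsc22d1, a leucine zipper protein of the TGF beta response, at 14527 ± 1911, the chromatin factor Hmga2 at 11690 ± 960 and the imprinted zinc finger gene Peg3 at 10870 ± 553. The Y-box proteins Ybx1 (7252 ± 336) and Ybx3 (6410 ± 622) came next, followed by Lhx9. Lhx9, a LIM homeobox factor without which the gonad does not form, read 5726, 6702 and 6040 (6156 ± 498), highest in pool 2. Its other 3 probe sets averaged 3680 ± 196, 848 ± 65.0 and 64.6 ± 20.5, all above the limit in every pool. Smad4, the shared SMAD of the TGF beta and BMP pathways, differed least between pools among the 15 brightest (5929, 5884 and 5821). Others of the 15 were the zinc finger gene Plagl1 (5461 ± 379), the TALE homeobox factor Pbx3 (4822 ± 436), the E protein Tcf12 (4736 ± 107) and Snai2 (4413 ± 428), a repressor known from cells that leave an epithelium. The value of Snai2 comes from an _x_at probe set, and the other probe set of the gene read 372, 392 and 425. Likewise Plagl1 read 269 and Pbx3 797 without _x_at and _s_at probe sets.

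Families of transcription factors differed in how many members were above the limit, where 65.4% of all named genes were. All 9 GATA factors and cofactors were above it, led by Gata6 (1961 ± 362), and so were all 3 TCF/LEF factors, led by Tcf7l1 (1872 ± 84.2). Of the homeobox families, 5 of 12 LIM, 12 of 17 TALE and 39 of 103 other homeobox genes were above it. Beside Pbx3, the TALE cofactors Meis2 (4032 ± 357) and Meis1 (2702 ± 176) were bright. T-box genes had 5 of 15 above the limit, with Tbx18 at 518 ± 156, and paired box genes 2 of 8, Pax8 at 92.2 ± 8.48 and Pax3 at 34.4 ± 6.73. Among 20 SOX genes, 13 were above the limit (65.0%), about the share of all genes, with Sox11 at 4246 ± 196, Sox4 at 4140 ± 636 and Sox9 at 100 ± 22.9. The nuclear receptors with the brightest probe sets were Nr2f1 (3114 ± 483), Nr2f2 (1987 ± 113) and Nr5a1.

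The HOX genes, whose combination records position along the body axis, had 25 of 33 members above the limit (75.8%), against 65.4% of all named genes. Hoxc8 read 3057, 2925 and 3479 (3154 ± 290), and Hoxa9 2783, 2640 and 3072 (2832 ± 220). Hoxd9 (1849 ± 24.5), Hoxc5 (1843 ± 92.5), Hoxd8 (1605 ± 28.1) and Hoxc4 (1077 ± 143) also had means above 1000. Of paralog groups 10 and 11, Hoxc10 was at 483 ± 61.5, Hoxd10 at 120 ± 17.0, Hoxa10 at 53.2 ± 11.3 and Hoxa11 at 32.8 ± 4.25. Hoxa13, Hoxb13, Hoxc13, Hoxd11, Hoxd12 and Hoxb7 were under the limit in every pool. Each of the 6 genes with a mean above 1000 thus belonged to paralog groups 4 to 9.

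Of ligands and secreted antagonists, 141 of 292 (48.3%) were above the limit in all pools, below the 65.4% of all genes. Mif, a cytokine-like protein, read 9323, 9918 and 7849 and the heparin-binding growth factor Mdk 9200, 9677 and 7595. Both were lowest in pool 3. Of the insulin-like growth factor and insulin ligands 4 of 6 were above the limit (66.7%), and of the binding proteins 6 of 8. Igf2 read 6181, 6542 and 5707 (6143 ± 419), and the binding proteins Igfbp4, Igfbp3 and Igfbp5 averaged 6823 ± 325, 3047 ± 167 and 2928 ± 531. Igfbp5 read 73.3 without its _s_at probe set. Kitl, the ligand of the Kit receptor that primordial germ cells carry, read 3728, 3459 and 3857 (3681 ± 203). Cxcl12, the chemokine known to guide these cells, was at 1826 ± 190. Wnt4, needed for ovarian development, read 1900, 2278 and 1554 (1911 ± 362), and Rspo1, a WNT enhancer, 650, 717 and 530. The WNT antagonist Sfrp1 was at 2596 ± 202 and the activin antagonist family member Fstl1 at 4728 ± 620. Of FGF genes only 6 of 22 were above the limit, Fgf9 brightest at 165 ± 52.2, and of chemokines and cytokines 21 of 77.

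Of receptors, 200 of 354 (56.5%) were above the limit in all pools, below the 65.4% of all genes. The thrombin receptor F2r read 11016, 9493 and 9536 by its brightest probe set. Its other one read 2178, 2295 and 2408, in another order of pools, and both have the suffix _s_at. Gas1, a surface protein that binds hedgehog ligands, read 8681, 9690 and 9241. Other hedgehog components on the receiving side were Smo (3211 ± 432, but 1052 without its _s_at probe set) and Ptch1 (1401 ± 191), and 5 of 6 hedgehog receptor genes were above the limit. Of the 3 hedgehog ligands only Dhh (29.2 ± 9.01) was above it in all pools. Lgr4, an R-spondin receptor, read 4704, 4654 and 4703, the closest agreement between pools among the 12 brightest receptors. Amhr2, the receptor of anti-Müllerian hormone, read 4279, 5009 and 2735 (4008 ± 1161), the widest spread of the 12. A second _x_at probe set of Amhr2 gave 3212, 3709 and 2104, and the remaining one 444, 545 and 179, so that pool 3 was lowest and pool 2 highest by each, at unlike levels. The hormone itself, Amh, was under the limit in every pool. Of BMP, activin and TGF beta receptors 14 of 16 were above the limit, with Bmpr2 at 3972 ± 133 and Tgfbr1 at 2813 ± 348, as were all 5 FGF receptors and all 4 NOTCH receptors. Igf2r (2425 ± 120), which clears Igf2, and Igf1r (865 ± 98.3), which signals for it, were both above the limit, and 3 of 6 insulin-like growth factor and insulin receptor genes were.

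**Figure D2:**
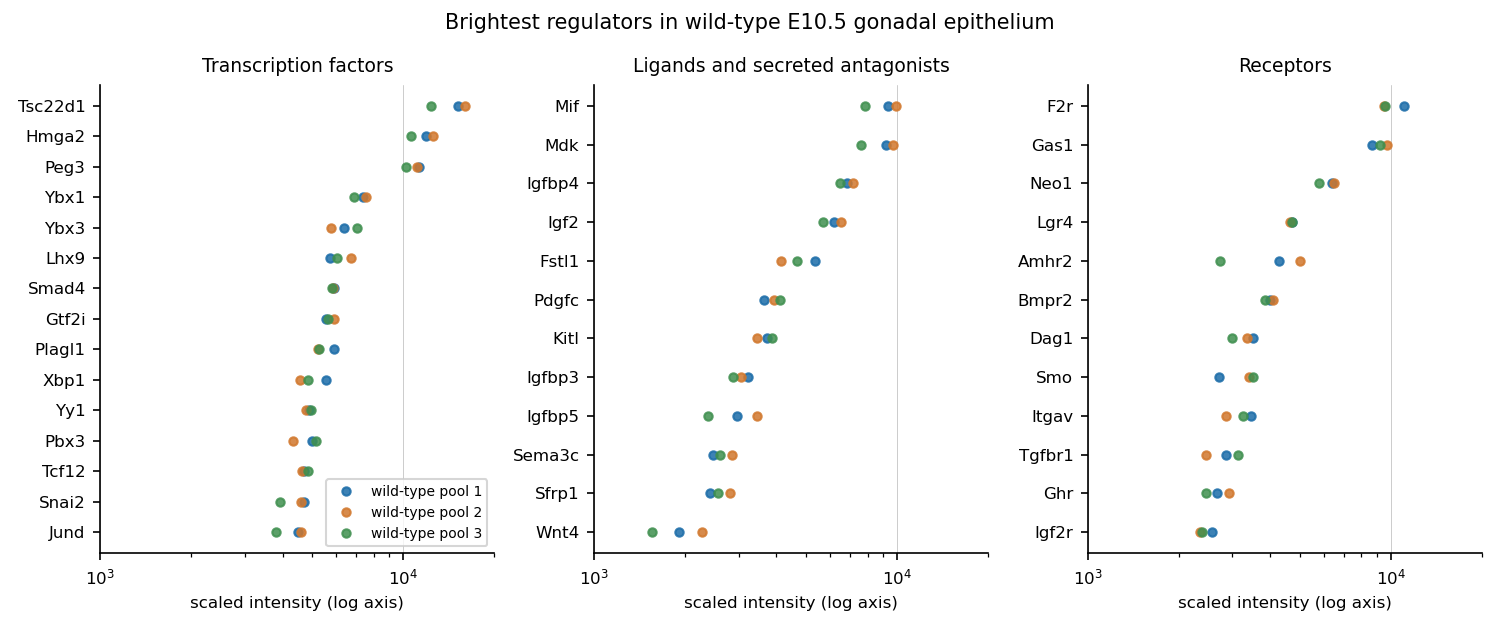
Scaled intensity (log axis) of the 15 brightest transcription factors, the 12 brightest ligands and secreted antagonists and the 12 brightest receptors, 1 point per wild-type pool. Most genes have their 3 points close together, while Amhr2 (4279, 5009 and 2735) and Wnt4 (1900, 2278 and 1554) are spread more widely.

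Markers of the labelled tissue were read against the limit. All 5 gonadal epithelium markers were above it in every pool, where 65.4% of all named genes were. Gata4 is among the 5, although GATA4 staining located the tissue. All measured markers of simple epithelium (4), mesenchyme (5), erythroid cells (4) and liver (3) were above the limit too, so the count does not identify the tissue. Wt1, a zinc finger factor of the coelomic epithelium and kidney, read 2484, 2620 and 2756 (2620 ± 136). Emx2 read 1302, 2120 and 1727 (1716 ± 409), and Nr5a1, the nuclear receptor of steroidogenic and gonadal cells, 1419, 2060 and 1517 (1666 ± 345). Gata4 read 229, 344 and 254 (276 ± 60.7). By their brightest probe sets Lhx9, Emx2, Nr5a1 and Gata4 were highest in pool 2 and lowest in pool 1, while Wt1 was highest in pool 3. For Lhx9 the order differed by probe set: the next brightest read 3628, 3515 and 3897 and another 787, 842 and 916, both highest in pool 3. A second probe set of Nr5a1 read 18.8, 4.57 and 2.40 and a second one of Gata4 averaged 7.64 ± 2.44, all under the limit. In such bulk samples, fewer cells of a type and less RNA per cell cannot be told apart.

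Of 30 measured gonadal regulators, 27 (90.0%) were above the limit in all pools, against 65.4% of all named genes. Beside the markers these included the catenin Ctnnb1 and the Notch inhibitor Numb (3225 ± 314), both widely expressed, the orphan receptor Nr2f2 (1987 ± 113), the basic helix-loop-helix factor Tcf21 (1325 ± 121), the FOG cofactor Zfpm2 (597 ± 43.6), the polycomb gene Cbx2 (579 ± 91.1), Map3k4 (2992 ± 164) and the insulin receptors Igf1r and Insr (407 ± 52.2). Genes that later mark the testis or ovary had dim probe sets. Sox9, the testis factor, read 118, 108 and 74.5, Foxl2, the ovary factor, 89.1, 76.5 and 87.6, and Dmrt1 90.4, 170 and 66.4. Sry, Sox8 and Amh were under the limit in all pools, Sry at 11.5, 7.08 and 11.3. Of the 27 genes above the limit, 14 were highest in pool 2 (51.9%), 7 in pool 1 and 6 in pool 3, against 33.5% of all genes highest in pool 2.

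Of the 16 keratins and coat genes, 8 were above the limit in all pools, a smaller share than the 65.4% of all genes. The paired keratins Krt8 (2299, 2324 and 1928) and Krt18 (1882, 1211 and 1820), found in simple epithelia, were well above the limit, Krt19 (150 ± 16.8) and Krt7 (85.1 ± 32.8) were dimmer, and of the keratins known from stratified epithelia, Krt10 read 322, 313 and 244 (293 ± 42.9), Krt15, Krt1 and Krt17 were under the limit in every pool, and Krt5 and Krt14 passed it in 1 pool each. All 3 Krt8 probe sets were lowest in pool 3, and the only Krt18 probe set was lowest in pool 2.

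Mesothelial genes were above the limit almost throughout, 21 of 22 (95.5%), against 65.4% of all named genes. The apical sialomucin Podxl read 5274, 5845 and 4914, the retinoic acid synthase Aldh1a2 3863, 4352 and 4631, the uroplakin Upk3b 2778, 3116 and 2675 and the zinc finger gene Bnc1 2170, 2212 and 2522. The values of Upk3b come from an _s_at probe set, and its other probe set read 869, 987 and 846. Lrrn4 was at 778 ± 118 and Upk1b at 171 ± 5.29. Msln, a surface marker of the mature mesothelium, was under the limit in every pool (1.34, 14.2 and 18.7). Aldh1a1, the second retinoic acid enzyme of the list, was less even, with 1231, 1726 and 722.

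The cadherins Cdh2 and Cdh1 both cleared the limit, by unlike margins. Cdh2 (N-cadherin) read 1957, 1534 and 1899, whereas Cdh1 (E-cadherin) read 87.5, 80.6 and 60.4 and the epithelial surface protein Epcam 225, 205 and 182. These are intensities of different probe sets and give no ratio of transcripts. Of 26 adherens junction and desmosome genes, 23 were above the limit, among them the catenins Ctnnb1 (11062 ± 706) and Ctnna1 (8886 ± 400), desmoplakin Dsp (2964 ± 326) and the desmosomal cadherin Dsg2 (2929 ± 51.9). Their median SD of log2 intensity over pools was 0.13, and 1 of 25 was 2-fold apart, against 10.7% of all genes. Among genes with a mean of at least 100, 1.92% were 2-fold apart. Of tight junction genes 16 of 26 (61.5%) were above the limit, close to the 65.4% of all genes. The scaffolds Mpdz (3240 ± 149) and Tjp1 (2323 ± 302), the claudin Cldn12 (2462 ± 318) and F11r (1352 ± 69.5) were bright. Ocln, which encodes occludin, passed the limit only in pool 2 (19.1, 25.7 and 16.5), and Cldn1, Cldn3 and Cldn4 in none. With a limit at the 99th percentile of the chemosensory probe sets, 10 tight junction genes and 5 keratins and coat genes remained above. The share of 65.4% belongs to the lower limit, and these counts were not set beside a share of all genes.

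Genes of apicobasal polarity were above the limit in 25 of 27 cases (92.6%), against 65.4% of all named genes. The atypical protein kinase C gene Prkci read 3914, 3881 and 4142, but its other probe set read 14.3, 11.1 and 38.5. The membrane linkers Rdx (3309 ± 219) and Ezr (1235 ± 96.2), the basolateral factor Llgl1 (3122 ± 361), the adaptor Slc9a3r1 (3098 ± 298) and the scaffold Pard3 (706 ± 17.3) were above it too. Of basement membrane and matrix genes 32 of 34 (94.1%) were. They included the matrix glycoprotein Sparc (5680 ± 770), the type IV collagen chain Col4a1 (3818 ± 223), the laminin chain Lamb1 (3474 ± 342), nidogen Nid1 (1532 ± 278) and fibronectin Fn1 (2056 ± 104). Without its _s_at probe set Lamb1 read 337. Fras1, a matrix protein of epithelial basement membranes, read 1070, 680 and 1551.

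Markers of other cell types were measured in the same pools. Mesenchymal genes were above the limit in 22 of 24 cases (91.7%), against 65.4% of all genes: Col3a1 read 5884, 6027 and 5725, Pdgfra 1733, 1742 and 1928, Pdgfrb 741, 631 and 628, Col1a1 322, 300 and 250 and Prrx1 204, 129 and 229. The summed intensity of the mesenchyme list was 29630, 27941 and 26049, highest in pool 1, and 16 of its 23 genes above the limit in at least 1 pool were highest there, against 4520 of 13594 of all genes. Coelomic epithelium itself expresses some of these genes, among them Vim (3875 ± 140) and Tcf21, and the share of mesenchyme in the pools was not tested.

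Globins of primitive red cells were among the brightest genes. Hbb-y read 14960, 14957 and 12794, Hbb-bh1 14450, 13020 and 13619 and Hba-x 7411, 7221 and 8447, and the other erythroid genes were dimmer. Of 14 erythroid genes 13 were above the limit (92.9%), against 65.4% of all named genes, and Hba-a1 was above it in no pool. Of endothelial genes 15 of 18 (83.3%) were above the limit, with a median of means of 60.6 against 113 over all genes. The brightest were the ETS factor Ets1 (617 ± 28.2), Egfl7 (496 ± 60.9), a protein secreted by endothelium, and Plvap (280 ± 61.3), found in endothelial vesicles. Kdr read 169, 201 and 99.6, Cdh5 41.5, 52.9 and 40.9, and Tek averaged 37.1 ± 5.34, while Pecam1, Emcn and Tie1 were under the limit in every pool. The summed endothelial list was 2623, 2610 and 2078. With the limit at the 99th percentile, 9 of the 18 remained, a count not set beside the share of all genes at that limit.

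The remaining lists are read against the 65.4% of all genes above the limit in all pools. Germ cell genes were above it in 13 of 17 cases (76.5%). The zinc finger gene Sall4 (804 ± 84.4) and the membrane protein gene Ifitm3 (761 ± 80.7) were brightest, with Dppa3 at 242, 268 and 216 and Pou5f1 at 96.2, 89.3 and 64.9. Ddx4, a gene of later germ cells, passed the limit in 2 pools and Dazl in 1. Nephric duct and mesonephric genes counted 12 of 17 (70.6%), with the calcium-binding protein gene Calb1 brightest (541 ± 56.4), Pax8 at 90.8, 101 and 84.5 and Ret above the limit in pool 1 alone (34.4, 11.4 and 18.5). Macrophage and white blood cell genes counted 9 of 18, with the lysozyme gene Lyz1 at 679 ± 129, the platelet factor Pf4 at 272 ± 75.6 and Csf1r at 223, 152 and 142. The value of Lyz1 comes from an _x_at probe set, and its only probe set without that suffix read 20.4, 15.1 and 34.4. The other probe sets of Csf1r averaged 43.4 ± 11.3 and 35.1 ± 13.6. Neural and neural crest genes counted 16 of 19 (84.2%). The LIM factor Isl1 (520 ± 155), Hand2 (514 ± 94.1), the neurofilament gene Nefl (450, 239 and 231), Dct (266 ± 44.4) and Sox2 (113 ± 12.5) were its brightest, while Sox10 (46.8 ± 14.5) and Elavl3 (37.2 ± 9.27) lay near the limit, and Tubb3, found in neurons, was under it in every pool. Muscle genes counted 12 of 21 (57.1%). Smooth muscle actin Acta2 (799 ± 150), the atrial myosin light chain Myl7 (782 ± 113), the myosin heavy chains Myh7 (223 ± 20.9) and Myh6 (219 ± 42.4) and desmin Des (199 ± 30.9) were brightest. The value of Acta2 comes from an _s_at probe set, and its other probe sets averaged 2.01 ± 1.73 and 1.43 ± 0.761, under the limit in every pool. Tnnt2 read 91.0, 157 and 100, and Myod1 and Myog were under the limit. The part of any of these cell types in the pools was not tested. With the limit at the 99th percentile these counts fell for nephric (7), macrophage (4) and neural genes (8). The fall was not set beside that of all genes, to which the share of 65.4% does not apply. Without pool 3 the macrophage count was 14. The steroid and adrenocortical list had 10 of 14 above the limit (71.4%), led by Fdx1 (2281 ± 266), Dlk1 (1888 ± 225) and Nr5a1.

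**Figure D3:**
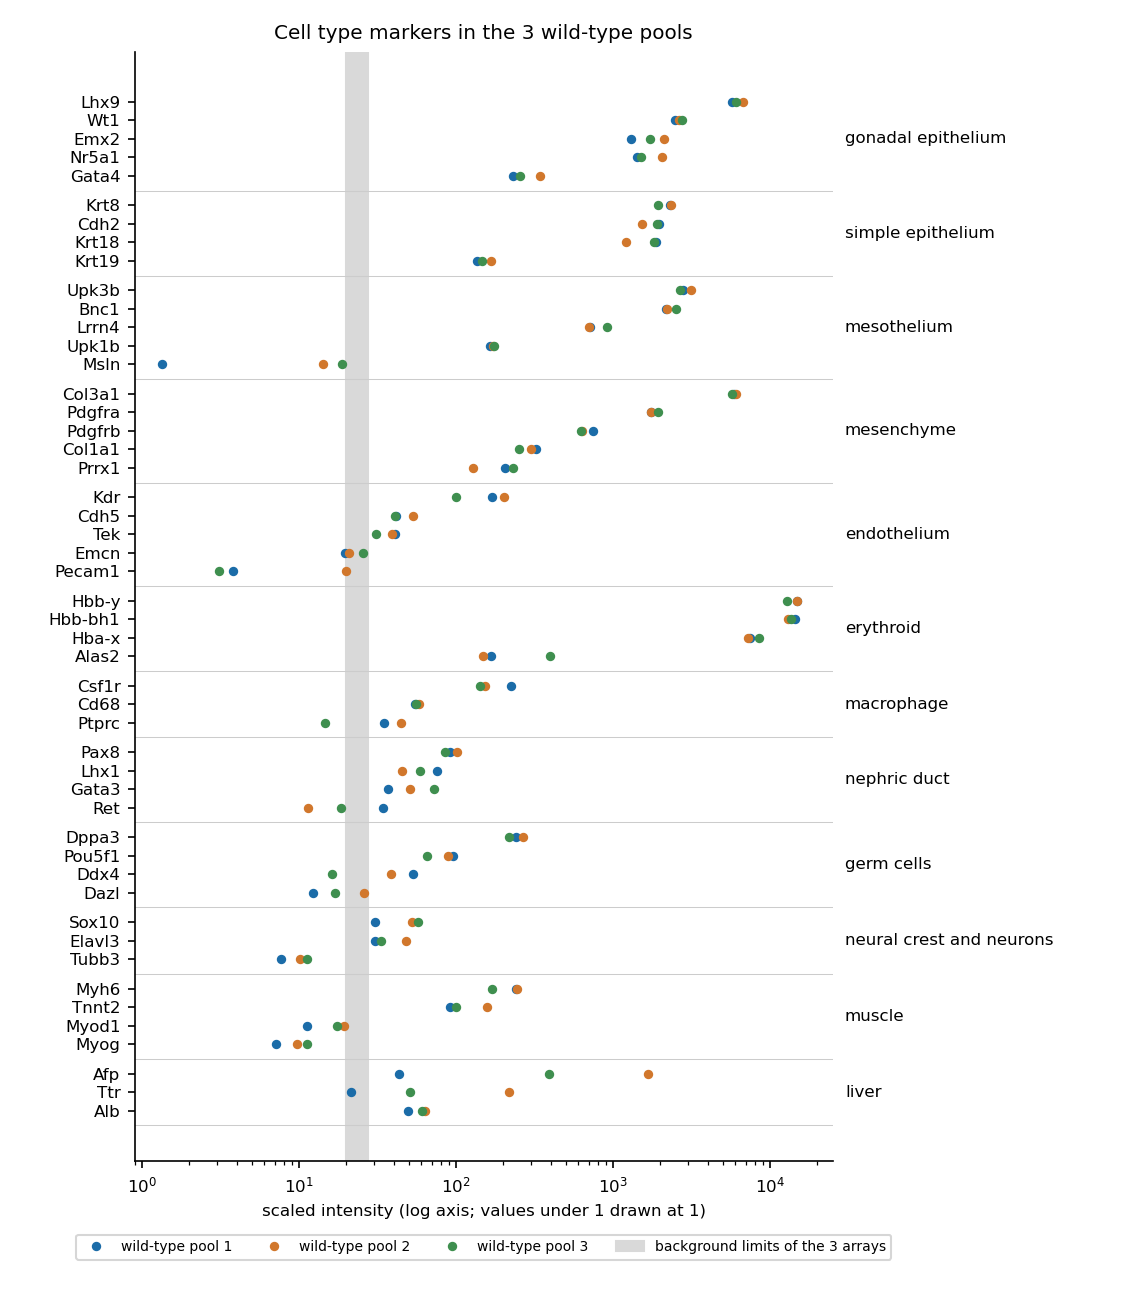
Scaled intensity (log axis) of cell type markers in the 3 wild-type pools, grouped by cell type, with the background limits of the 3 arrays (20.03 to 27.29) as a grey band. Gonadal, simple epithelial, mesenchymal and most mesothelial markers lie well above the band and embryonic globins lie highest. Most endothelial, germ cell, neural and muscle markers lie closer to the band.

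The pools agreed most closely for bright genes. In 10 bins of level of the genes above the limit in all pools, the median SD of log2 intensity fell from 0.29 in the dimmest to 0.10 in the brightest, where the median coefficient of variation was 6.94%. Of the 13594 genes above the limit in at least 1 pool, 1457 (10.7%) were at least 2-fold apart between the highest and lowest pool. Of the 9375 among them with a mean of at least 100, 180 (1.92%) were 2-fold apart and 6 were 4-fold apart, namely Afp, Gpr50, Myl2, Slc4a1, Kctd14 and Ermap. The median log2 difference of pool 3 from pool 1 was 0.19 in the dimmest bin and -0.08 in the brightest. In the 8 bins between, it lay from -0.06 to 0.01, with no steady run. The dimmest bin holds only genes above the limit in all pools, and that limit was higher in pool 3 (27.29) than in pool 1 (20.03). The part of these unequal limits in the difference was not tested.

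**Figure D4:**
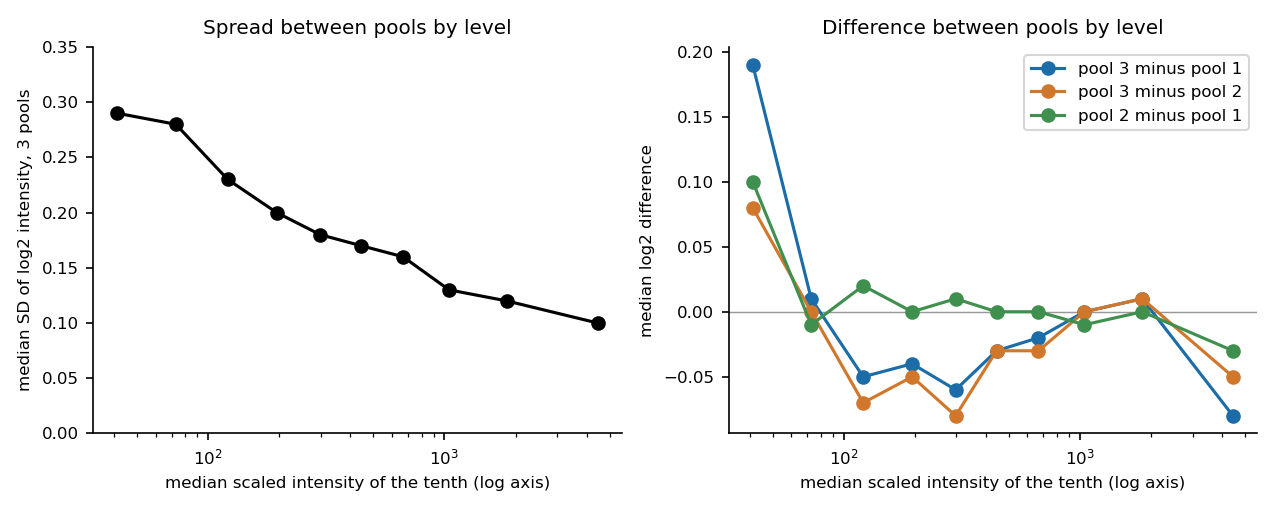
Left, median SD of log2 intensity over the 3 pools, and right, median log2 difference between pairs of pools, each against the median scaled intensity (log axis) of 10 bins of genes above the background limit in all pools. The SD falls from 0.29 to 0.10, and the difference of pool 3 from pool 1 is 0.19 in the dimmest bin, -0.08 in the brightest and from -0.06 to 0.01 in the others. The limits differed between pools, and their part in the dimmest bin was not tested.

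The gene of greatest spread was Afp, the alpha-fetoprotein of yolk sac and fetal liver, with 43.5, 1668 and 392. The 2 next brightest of its probe sets gave 14.3, 443 and 95.6 and 27.1, 308 and 119, in the same order of pools. Other liver genes were high in pool 2 as well: Ttr read 21.5, 217 and 51.2 and Rbp4 25.7, 113 and 49.0, whereas Alb read 49.5, 63.6 and 60.6. Sox17, a factor of gut endoderm and also of endothelium, went the other way with 163, 138 and 71.3 by an _x_at probe set. Its other probe set lay near the limit at 21.7, 19.5 and 19.7. Of the 11 liver and gut genes above the limit in at least 1 pool, 7 were highest in pool 2, and 7 were at least 2-fold apart (63.6%), against 10.7% of all genes. Only 7 of the list's 18 genes were above the limit in all pools (38.9%), against 65.4% of all named genes. The list's summed intensity was 509, 2466 and 902. The part of fetal liver or yolk sac RNA in these values was not tested.

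Most erythroid genes were highest in pool 3. Slc4a1, the anion exchanger of the red cell membrane, read 573, 511 and 2286, and a second probe set gave 249, 185 and 855. Alas2, the first enzyme of heme synthesis in red cells, read 167, 149 and 398, and Hemgn, a nuclear protein of erythroid cells, 587, 486 and 1335. Of the 13 erythroid genes above the limit, 11 were highest in pool 3, against 33.3% of all genes above the limit in at least 1 pool, and 7 (53.8%) were at least 2-fold apart, against 10.7% of all genes. Of the globins, Hba-x was also highest in pool 3. By their brightest probe sets Hbb-y was lowest there and Hbb-bh1 was highest in pool 1, but the order differed by probe set. The dimmest probe set of each was highest in pool 3, Hbb-y at 8725, 7461 and 9515 and Hbb-bh1 at 7770, 6014 and 8724. The remaining one of each was lowest there, at 14824, 14796 and 12587 and at 14822, 13419 and 12777. Hbb-y and Hbb-bh1 were among the brightest 100 genes, of which 94 were lowest in pool 3 after scaling. The part of red cells in these values was not tested.

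Of the genes with a mean of at least 100, 12 were at least 2-fold above both other pools in pool 3, 5 in pool 2 and 3 in pool 1, while 22, 9 and 5 were as far below both others in pools 3, 2 and 1. Named after their values were seen, those high in pool 1 were Ang, Dach2 and Thtpa, those high in pool 2 Afp, Kctd14, Tst, Kcnip1 and Bmyc, and those low in pool 1 Afp, Rbm45, Tlnrd1, Flnc and C030013C21Rik. Beside erythroid genes, those high in pool 3 included Myl2, a myosin light chain of heart and slow muscle, at 35.5, 20.5 and 336. Kctd14 read 512, 1124 and 243, and its 3 other probe sets put the pools in the same order. Wnt6, a WNT ligand of epithelia, read 156, 271 and 78.1. For some genes the probe sets disagreed. Ccne1, the cyclin that drives entry into S phase, read 2656, 943 and 3143 by its brightest probe set but 746, 689 and 746 by the other, and Gpr50 read 249, 12.9 and 197 by 1 probe set and about 1 unit (1.22, 1.09 and 1.33) by the other.

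**Figure D5:**
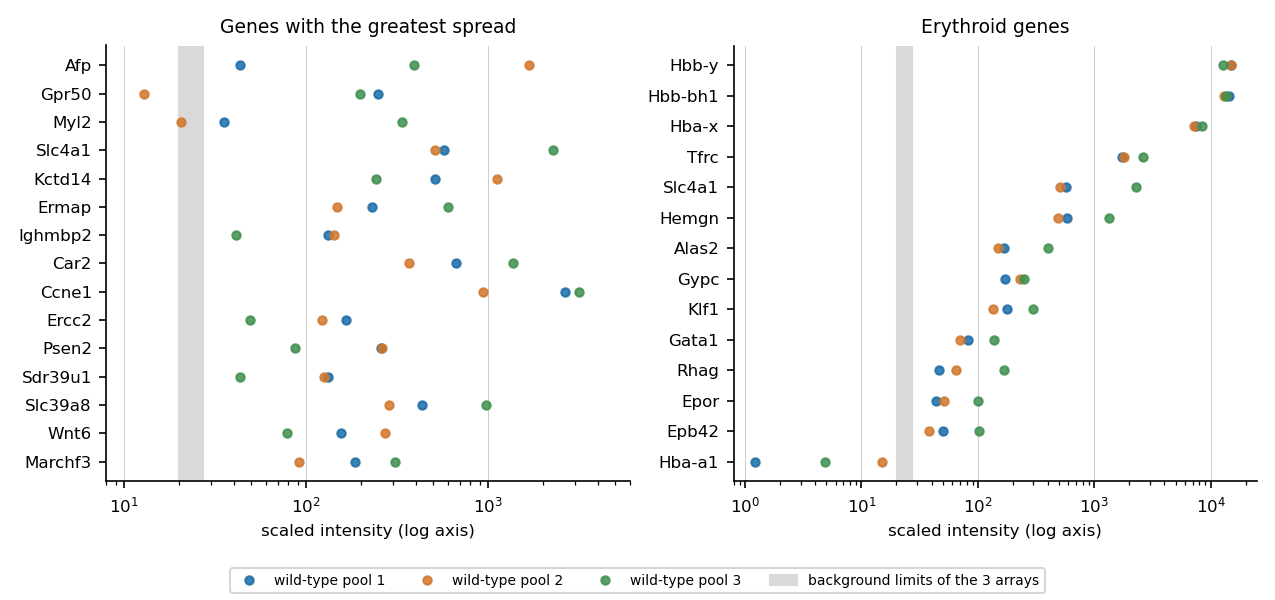
Scaled intensity (log axis) of the 15 genes with the greatest spread between pools (left) and of the 14 erythroid genes (right), 1 point per wild-type pool, with the background limits as a grey band. Afp is highest in pool 2 (1668), and most erythroid genes under the globins, such as Slc4a1 (2286) and Alas2 (398), are highest in pool 3.

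Probe sets of 1 gene often differed in level. Of 7421 genes with more than 1 probe set and at least 1 of them above the limit in all pools, 2499 (33.7%) had another probe set above it in no pool. The median ratio of the brightest to the dimmest probe set of a gene was 9.24. A gene read as under the limit by a single probe set, such as Pecam1 or Msln, was therefore not detectable with that probe set, and its absence from the tissue was not tested.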

How the data were processed

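Total RNA from 3 wild-type pools was measured on 1-colour arrays. The values are the intensities deposited by the authors, linear and 1 per probe set and array. The submitters' processing notes list GCOS 1.2. Its algorithm, scaling and detection calls are not given in the sources used here.

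Each of the 45101 probe sets (64 of them controls, left out) was scaled by its array's 2% trimmed mean to 309.2, the geometric mean over all 6 arrays. Of the probe sets, 34958 had 1 gene symbol in the platform's annotation, 932 several and 9211 none. Those with 1 symbol, 34754 of them matched to RefSeq by gene identifier, gave 18193 named genes, each read by its brightest probe set. For SDs of log2 intensity, values below the 20th percentile (7.73) were set to it. The number of arrays, 3, limits the precision. No test was made: there is 1 group.

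The genes open to naming were the 25 brightest, the 15 brightest transcription factors outside the ZFP family, the 12 brightest ligands and receptors each, the 5 brightest of each of 31 lists, all cell type markers, the 15 genes of greatest spread with a mean of at least 100, HOX genes above the limit and all probe sets of the gonadal markers. Not all of them are printed. Further list and family members are named where their group is described, and were chosen after their values were seen. Members and lists were chosen with earlier results of these data known. The pattern that picks histone genes was corrected after the values were seen, since it also took histocompatibility genes. The alternatives were no rescaling, a common median, quantile normalization, each pool left out, 2 other limits, averaging a gene over its probe sets, no _x_at or _s_at probe sets, no floor and no filter.

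Scaling and spread were tested on simulated data. Python 3.11.15, numpy 2.4.6, pandas 2.3.3, scipy 1.17.1 and matplotlib 3.10.9 were used.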

Additional observations from a re-analysis of the deposited data

How the results depend on the processing

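The median SD of log2 intensity between pools was 0.224 over probe sets above the background limit in at least 1 pool, and 0.368 with intensities as deposited and not rescaled. The probe sets at least 2-fold apart between pools numbered 4475, against 7821 without rescaling, 1949 with the limit at the 99th percentile of chemosensory receptors, 6946 with no filter on dim probe sets, and 1993 to 2304 with 1 pool left out, where fewer pools are compared. Of the brightest 25 genes, 10 remained among the brightest 25 when a gene was averaged over its probe sets and 10 without _x_at and _s_at probe sets. The other 87 alternative values of the counts and medians moved by less than 1.5 times or 1 SD. Rescaling cannot change which genes pass a limit that is scaled with its array. With the 99th percentile limit, 8 of 31 list counts moved by over 1.5 times. Of 260 named genes, 168 moved by over 1 SD when averaged over probe sets and 0 with quantile normalization. Without _x_at and _s_at probe sets 49 of 250 moved. With any 1 pool left out 0 of 260 moved. Among so few pools, removing 1 cannot shift a mean by as much as 1 SD, so that count tests nothing. Signal near the background limits of 20.03, 25.27 and 27.29 cannot be told from the background. No paired analysis was possible because a single group was described and no test was made.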

Other observations

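All 32 cell cycle genes were above the background limit in all pools, against 65.4% of all named genes, with a median of means of 2347 against 113. The replication licensing factors Mcm7 and Mcm5 were at 9561 ± 491 and 8653 ± 734 (SD, n = 3), but at 732 and 1465 without _x_at and _s_at probe sets. The proliferation marker Mki67 read 7501, 8173 and 7237, and the mitotic kinase gene Cdk1 2684, 3008 and 2904. Of the cyclin-dependent kinase inhibitors, the imprinted gene Cdkn1c read 6235, 6627 and 4606, while Cdkn1a was at 122 ± 8.69 and Cdkn1b at 185 ± 42.7. All 16 hypoxia response genes were above the limit, with Pdk1 at 2038 ± 241, Egln1 at 1327 ± 19.6 and a median of means of 468. Of the 16, 0 were 2-fold apart between pools, against 10.7% of all genes above the limit in at least 1 pool. Among such genes with a mean of at least 100, only 1.92% were 2-fold apart, so that 0 of 16 is near that share.

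Of 23 imprinted genes, 18 (78.3%) were above the limit in all pools, against 65.4% of all named genes, with a median of means of 1556. Of them 0 were 2-fold apart, where 10.7% of all genes were, but only 1.92% of those with a mean of at least 100. Peg3 (10870 ± 553), Ndn (8588 ± 672), Grb10 (7321 ± 775), Gnas (6135 ± 476, but 240 without _s_at probe sets) and the noncoding RNA Meg3 (5832 ± 134) were bright. Snrpn and Ascl2 were under the limit in every pool. Of the transcription factors known from epithelial to mesenchymal transition, 9 of 10 were above the limit, against 65.4% of all named genes. Tcf4 was at 2753 ± 361, Zeb1 at 1560 ± 83.9, Zeb2 at 617 ± 89.8 and Twist1 at 296 ± 27.2, and Snai1 was under the limit in every pool.

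Y-linked genes gave a signal in each pool, Eif2s3y reading 813, 709 and 806, Kdm5d 367, 293 and 412 and Uty 261, 208 and 229. Xist, the RNA of the inactive X chromosome, read 20.7, 13.3 and 69.9 by its brightest probe set and was under the limit by its other 2. The sex of the fetuses in each pool is not in the labels.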
